A study of Mus musculus with 8 samples.

Results

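The cytosolic ribosomal protein genes encode the proteins of the ribosome that works outside mitochondria. Members were chosen by symbol alone, as protein-coding genes named Rpl or Rps with a number and at most a short suffix, together with Rpsa, Rplp0, Rplp1 and Rplp2. The rule found 77 of the 55414 gene IDs in the table, 46 of the large and 31 of the small subunit, and it used no measured value. All 8 libraries came from Paneth cells (PCs) sorted by fluorescence from the small intestine of C57BL/6J mice, with 1 mouse per library. Of these mice, 4 drank Milli-Q (ultrapure) water for 7 days and 4 drank water with 25 mM ZnSO4 for the same time. Both groups thus shared strain, tissue, sort and the stranded mRNA kit, and they differed in the zinc. The labels give neither age nor sex of these animals.

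Each ribosome joins a small subunit, which reads the mRNA, to a large subunit, which forms the peptide bond, and nearly every ribosomal protein is needed in 1 copy per ribosome. The exception is the stalk of the large subunit, where Rplp0 anchors pairs of Rplp1 and Rplp2 that recruit the translation factors. Ribosomal protein mRNAs typically begin with a cytosine and a run of pyrimidines, the terminal oligopyrimidine (TOP) motif, through which mTOR and Larp1 control their translation as a group. PCs are secretory cells filled with antimicrobial granules, and such cells carry a dense rough endoplasmic reticulum studded with ribosomes. The genes also have many processed pseudogenes, intronless copies of their mRNAs scattered over the genome.

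The sequences below show the motif in the members on which the results turn, namely the 3 stalk genes, the highly counted members Rpl4 and Rps3, the member with the smallest p (Rpl10a) and 3 members with hardly any counts (Rps6, Rps10 and Rpl24). Each line is the first 25 bases of the transcript in GENCODE M39 (GRCm39) with the longest run, 5′ to 3′ on the transcribed strand, and capitals mark the opening cytosine and the pyrimidines that follow it.
Rplp0: CTCTCgccaggcgtcctcgttggag
Rplp1: CTTTTCCTCagctgccgccaaggtg
Rplp2: CCTTTCgccgccggacgccgccgag
Rpl4: CTTTCCTTTTCCTgtgggagcagcc
Rps3: CTTCCTTTCCTTTCagcggcgcgcg
Rpl10a: CCTTCTTTCCggtttccgcggcagc
Rps6: CTCTTTTTCgtgacgcctcccaggc
Rps10: CTTCCTTTCCagcctccgcctcgga
Rpl24: CTTTCTCTTCgccatctttaccccg
These stretches lie at chr5:115697574-115697598 (plus strand, Rplp0), chr9:61821797-61821821 (minus, Rplp1), chr7:141027563-141027587 (plus, Rplp2), chr9:64080652-64080676 (plus, Rpl4), chr7:99132837-99132861 (minus, Rps3), chr17:28547556-28547580 (plus, Rpl10a), chr4:86775580-86775604 (minus, Rps6), chr17:27854194-27854218 (minus, Rps10) and chr16:55786752-55786776 (plus, Rpl24). All are the first exon of an annotated transcript.

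A start with C followed by at least 4 bases that are C or T was annotated for at least 1 transcript of 66 of the 77 members (85.71%), against 3929 of 21770 protein-coding genes (18.05%) and 25.67% of the coding genes tested below. Members have more annotated transcripts, with a median of 21 per gene against 8 over all coding genes. Counted per transcript, the start was found in 18.51% of the members' 1831 transcripts and in 3.547% of all 305469 transcripts of coding genes. The members without such a start were Rpl8, Rpl14, Rpl18, Rpl23a, Rpl27, Rpl38, Rpl39, Rpl41, Rps9, Rps23 and Rps29. The longest run had 10 bases in Rpl24 and 9 in Rps6, which had hardly any counts, and 14 in Rps3 and 5 in Rplp0, which were well counted. The match describes annotated letters and does not show that a given start was used in PCs.

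Library totals ran from 20760764 to 24117111 counts. CPM are counts rescaled so that all libraries have the same total. A gene with 0 counts could still have had a level of at most 0.1244 to 0.1445 CPM, the level of 3 counts. This limit uses the plain totals, before the TMM scaling named below, whose factors ran from 0.7636 in water 1 to 1.225 in zinc 4. The PC label was checked with 8 Paneth markers, which took 37.56 to 48.52% of the counts in every library, while 10 enterocyte markers took 0.01787 to 0.03166% and 7 goblet markers 0.921 to 1.632%. The 28 coding α-defensin (Defa) genes alone took 27.86 to 39.85%, so the share left to all other genes together varied with theirs. For this reason levels below are CPM after TMM scaling, which sets libraries to a common level over most genes, unless a share is named. In bulk libraries, fewer cells of a type and less RNA per cell cannot be told apart.

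The 77 members together took a small share of all counts. It was 0.6118, 0.7732, 0.7551 and 1.142% in water libraries 1 to 4 and 0.6534, 0.7587, 0.7351 and 0.9579% in zinc libraries 1 to 4. Most members share sequence with other loci, as given below, and how reads with several matches were counted is not known. This share of counts therefore does not give the share of these mRNAs in the cells. Water 4 was highest and zinc 4 next, the libraries numbered 1 were lowest in both groups, and all zinc libraries lay within the range of the water libraries. The means were 0.8204% ± 0.226 (SD, n = 4) with water and 0.7763% ± 0.1292 (SD, n = 4) with zinc, a difference smaller than each SD (exact two-sided permutation test, p = 0.7714; 70 assignments, smallest possible p 0.02857). Without water 4 the difference turned from -0.04412 to 0.06295 percentage points.

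The spread between libraries ran against the Defa share, which was 39.85% in water 1 and 38.51% in zinc 1 but 29.21% in water 4 and 27.86% in zinc 4. As a share of the counts outside coding Defa genes, the members took 1.017, 1.17, 1.13 and 1.613% with water. With zinc they took 1.063, 1.149, 1.099 and 1.328%. The highest to lowest ratio was then 1.586, and the libraries numbered 1 were still lowest in both groups. After TMM scaling, the members' summed level was 8016, 7605, 7089 and 9416 CPM with water and 8440, 7605, 7004 and 7825 CPM with zinc. On this scale the libraries numbered 1 were no longer lowest, zinc 4 lay inside the range of the others, and water 4 still stood above every other library. The highest to lowest ratio was 1.866 for the share and 1.345 for the scaled sum, and the scaled means of 8031 ± 998.2 and 7718 ± 593.1 CPM (SD, n = 4 each) did not differ beyond their spread (exact two-sided permutation test, p = 0.6). Adjusted over the 8 per-library comparisons made, every p was 0.7714 (Benjamini-Hochberg over exact permutation tests).

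**Figure D1:**
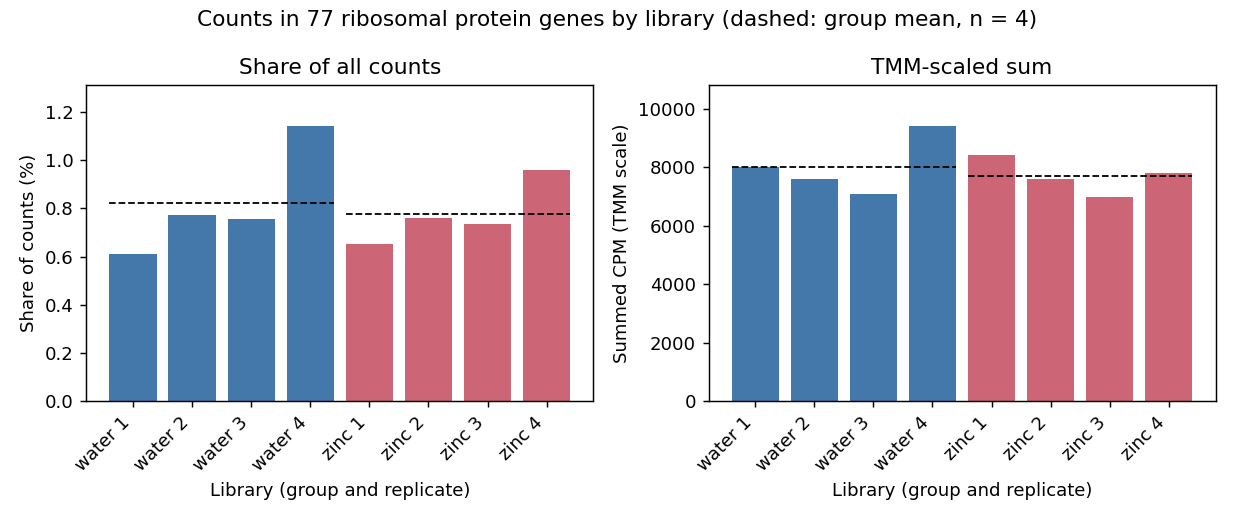
Bars give, for each library, the share of all counts in the 77 ribosomal protein genes (left, percent) and their summed CPM after TMM scaling (right), in blue for water and red for zinc, with dashed lines at the group means (n = 4). Water 4 is highest on both scales, and the zinc libraries lie within the range of the water libraries in the left panel, whereas zinc 3, at 7004 CPM, is just below water 3, at 7089 CPM, in the right panel.

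Water 4 was high across the members rather than in a few of them. Of the 70 members that passed the low-count filter, 67 lay above their own mean over the 8 libraries in water 4, 43 in water 1, 20 in water 2 and 12 in water 3. With zinc the numbers were 48, 25, 12 and 38 of 70. Over all genes tested this share was 50.56 to 53.08% in every library. The median member deviated by 0.26 on the log2 scale in water 4, by -0.11 in water 3 and by -0.13 in zinc 3, and in this median the groups differed by less than the spread between their libraries (exact two-sided permutation test, p = 0.6286).

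The 15 translation factors and related genes with known TOP mRNAs, such as Eef1a1, which brings aminoacyl-tRNA to the ribosome, and Rack1, which sits on the small subunit, showed a similar order. Their median deviation was -0.04, -0.01, -0.05 and 0.17 (log2) in water 1 to 4 and 0.10, -0.04, -0.15 and 0.04 in zinc 1 to 4, again highest in water 4 and lowest in zinc 3. Markers of crypt stem and dividing cells (10 of 10 tested, none at 0) also had their highest sum in water 4, which was 5991 CPM, while water 1 to 3 ranged from 4548 to 5252 CPM and the zinc libraries from 3382 to 4698 CPM. Most of this sum was the stem cell gene Olfm4, at 5484 CPM in water 4, and other markers of the list ran differently, with Smoc2 lowest in water 4, at 148.2 CPM, and Top2a highest in zinc 4, at 156.7 CPM. The list's median deviation was 0.02 (log2) in water 4 and highest in zinc 4, at 0.26. Enteroendocrine and tuft markers summed to 129.6 CPM in water 4 and to 13.38 to 121.1 CPM in the other libraries. Immune and stromal markers, which had few counts, summed to 2.559 CPM in water 4 and to 0.3563 to 1.607 CPM elsewhere. Paneth markers summed to 324200 CPM in water 4, to 409500 to 624400 CPM in water 1 to 3 and to 306800 CPM in zinc 4. The goblet sum, at 9908 CPM in water 4, lay within the range of the other libraries. The part of these cell types in the high level of the ribosomal protein genes in water 4 was not tested.

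**Figure D2:**
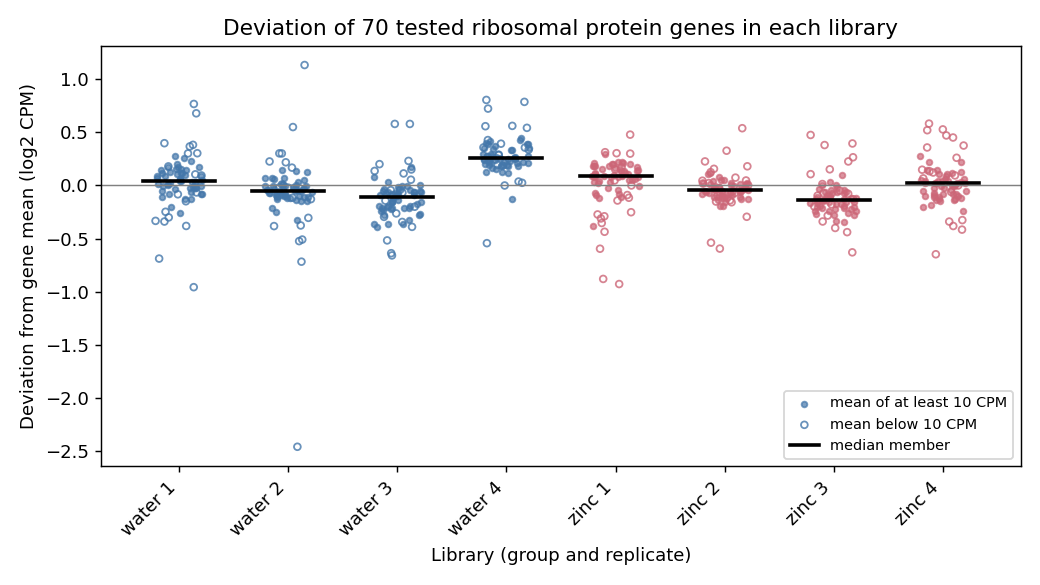
Each point is 1 of the 70 tested members in 1 library, plotted as its log2 CPM minus its own mean over the 8 libraries, with filled points for members with a mean of at least 10 CPM, open points for lower ones, and a black line at the median member. In water 4, 67 of 70 points lie above 0, and in water 3 and zinc 3 12 of 70 do, and the lowest point is Rps6 in water 2, with 0 counts.

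Whether zinc changed any single member was then tested with edgeR's quasi-likelihood test on all genes, with Benjamini-Hochberg adjustment over the 11988 genes that passed the filter. No member passed an adjusted p of 0.05. Over all genes 10 passed (0.0834%), 3 higher (0.025%) and 7 lower (0.0584%) with zinc, so 0 of 70 members lay near that background. At an unadjusted p under 0.05 there was 1 member and 558 genes in all (4.65%). DESeq2 (36 of 14357 genes, 0.251%) and limma-voom (12 of 11988 genes) called no member either. A fit with the replicate number as a block called 32 genes (0.267%) and no member, and the smallest adjusted p of a member over these fits and all alternatives was 0.557.

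The log2 fold changes of the members were small and mostly below 0. The median was -0.08 over the 70 tested members, against 0.01 over all genes tested, and 54 of 70 members (77.14%) but 48.06% of all genes lay below 0. With no low-count filter, 55 of 77 members lay below 0. The 2 subunits were alike, with a median of -0.07 over 26 small subunit members (21 below 0) and -0.08 over 44 large subunit members (33 below 0). This direction rested on water 4, since without that library 36 members lay below and 34 above 0 and the median was -0.005. The tested enterocyte markers lay higher with zinc in their median, with all 6 tested of 10 above 0 (median log2 fold change 0.30). Their median deviation was -0.36 to 0.01 with water and 0.03 to 0.36 with zinc. None was called. Sis, a brush border disaccharidase with the smallest p of that list, was at 1.626 to 2.864 CPM with water and 2.375 to 22.79 CPM with zinc (edgeR adjusted p = 0.8522). The sum over all 10 markers overlapped between groups, at 234.2 to 254.9 CPM with water and 235.5 to 317.3 CPM with zinc. The other 4 enterocyte markers were below the filter. Of these, Fabp1 (0.4195 and 0.262 CPM) and Alpi (0.2406 and 0.2304 CPM) had lower means with zinc than with water. Slc2a2 and Lct had higher means with zinc, and Lct had no count with water. The part of these cells in the members' fold changes was not tested. Among the 50 members with a mean of at least 10 CPM the fold changes ran from -0.21 to 0.18 with SEs of 0.11 to 0.17, and none of them exceeded 2 SEs.

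**Figure D3:**
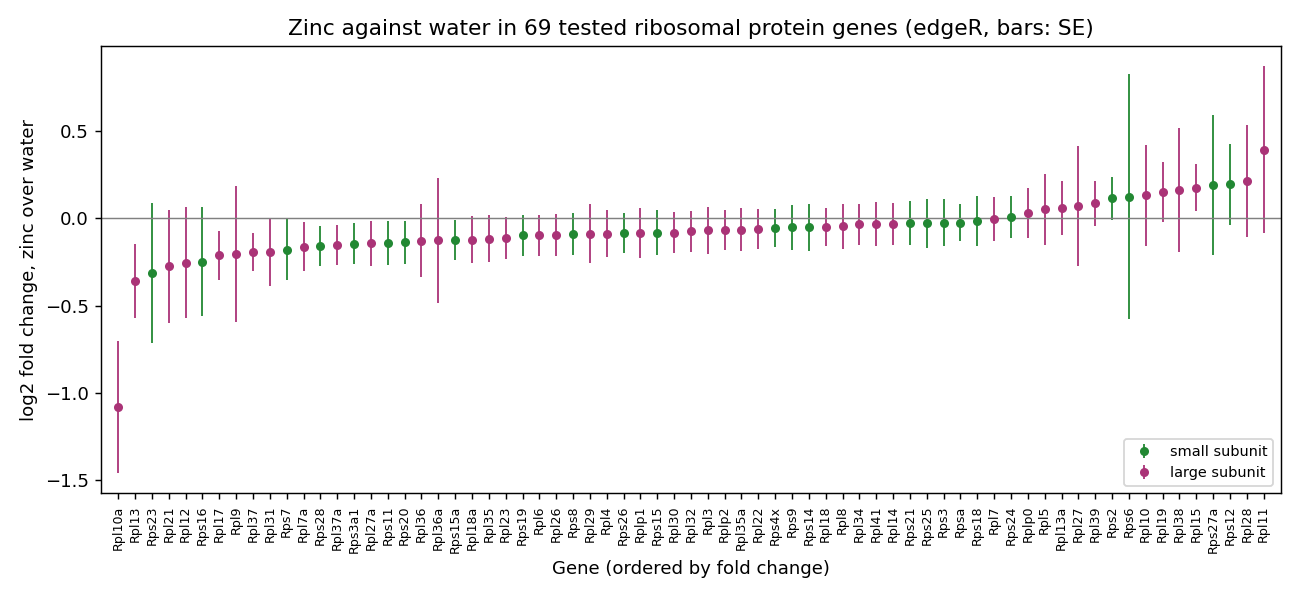
Points give the edgeR log2 fold change of zinc over water for 69 of the 70 tested members in order of size, with bars of 1 SE, in green for the small and purple for the large subunit. Rpl10a stands apart at -1.08, and 59 of the 69 members shown lie within 0.2 of 0.

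Rpl10a (ENSMUSG00000037805, chr17:28547144-28550008), a large subunit protein near the exit site for tRNA, had the smallest p. It was measured at 1.751, 3.007, 1.438 and 1.718 CPM with water and at 0.6532, 1.062, 1.027 and 0.9696 CPM with zinc. All 4 zinc libraries lay below all 4 water libraries, the only member whose groups did not overlap, where 2.84% of all genes tested did not overlap, 1.59% lower and 1.24% higher with zinc. The change was -1.08 on the log2 scale (SE 0.38), for which edgeR gave an adjusted p of 0.9201. It ran from -1.21 to -0.81 when each library was left out in turn. The counts were low, with a mean of 32.62 per library, and no stretch of 75 bases of its coding sequence was found only at this gene.

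Among members of at least 10 CPM, the lowest fold changes were those of Rpl17, Rpl37, Rpl7a and Rps28. Rpl37, a small zinc-binding protein of the large subunit, was at 63.36, 65.73, 57.95 and 68.36 CPM with water and at 63.3, 55.52, 50.21 and 54.22 CPM with zinc. Only zinc 1 lay within the water range, and the fold change was -0.19 on the log2 scale (SE 0.11). Rpl17, which lines the exit tunnel for the new peptide, was at 23.02, 21.57, 20.26 and 29.02 CPM with water and at 20.01, 21, 17.03 and 23.04 CPM with zinc, a log2 fold change of -0.21 (SE 0.14). Its groups overlapped. Rpl7a and Rps28 had fold changes of -0.16 (SE 0.14) and -0.16 (SE 0.11), again with overlapping groups.

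At the other end were Rpl15, Rpl19, Rps2 and Rpl39. Rpl15, a large subunit protein, was at 20.2, 19.68, 18.02 and 24.82 CPM with water and at 25.42, 20.23, 22.4 and 25.44 CPM with zinc. Water 4 lay inside the zinc range, and the log2 fold change was 0.18 (SE 0.13). Rps2, at the mRNA entry of the small subunit, was at 100.4, 86.87, 73.69 and 105.1 CPM with water and at 109.4, 89.9, 95.13 and 101.8 CPM with zinc, a log2 fold change of 0.11 (SE 0.12). Its groups overlapped as well. For Rpl19 and Rpl39 the fold changes were 0.15 (SE 0.17) and 0.09 (SE 0.13), and every member other than Rpl10a had an adjusted p of 0.998 (edgeR).

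The stalk genes were among the best measured members. Rplp0 (ENSMUSG00000067274), the stalk base, was at 734.8, 715, 600.9 and 845 CPM with water and at 837.4, 739.5, 653.7 and 726.1 CPM with zinc. Rplp1 (ENSMUSG00000007892) was at 463.8, 459.2, 396.9 and 608.8 CPM with water and at 482.1, 461.6, 399.1 and 476.8 CPM with zinc. In both genes water 4 was the highest library and water 3 the lowest, and the zinc libraries lay between them. Rplp2 (ENSMUSG00000025508) was at 118.3, 106.5, 109.3 and 135 CPM with water and at 121, 110, 99.87 and 117.3 CPM with zinc, with zinc 3 as its lowest library. Their log2 fold changes were 0.03 (SE 0.14), -0.08 (SE 0.14) and -0.07 (SE 0.11). The stalk took 16.43, 16.84, 15.62 and 16.87% of member counts with water and 17.07, 17.24, 16.46 and 16.87% with zinc, with overlapping groups (exact two-sided permutation test, p = 0.2).

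The ratio of the subunits' summed counts varied less than the level. The log2 ratio of summed small to summed large subunit counts was -0.25, -0.31, -0.31 and -0.27 with water and -0.28, -0.31, -0.29 and -0.31 with zinc. Libraries whose member share differed by 1.866 times kept this ratio within a range of less than 0.1. A shift common to all members cancels in such a ratio, so part of this steadiness follows from how it is formed. The groups did not differ beyond their spread (difference of -0.01, SDs 0.03 and 0.01; exact two-sided permutation test, p = 0.5429). The sums rest mostly on the most counted members, and with every member weighted alike the difference had the other sign, as given in the closing section. Rps3 and Rpl8 followed the median member most closely, with SDs around it of 0.0281 and 0.0189 on the log2 scale. Rps3, which lines the mRNA entry, was at 650.7, 623.4, 575.4 and 778.1 CPM with water and at 688.8, 627.9, 596.7 and 666.9 CPM with zinc. It again had its highest value in water 4, and the zinc libraries lay between water 3 and water 4. Rpsa, the laminin receptor homologue of the small subunit, lay at 37.23 to 43.69 CPM in all 8 libraries with a log2 fold change of -0.02 (SE 0.11).

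Although ribosomes need these proteins in nearly equal numbers, the counted levels of the members differed by orders of magnitude. Per kilobase of mRNA, the mean level over the 8 libraries was 856.6 CPM for Rplp1, the highest member in both groups, and among the next members it was 714.6 for Rps3 and 633.4 for Rpl8. With water the levels of Rps3 and Rpl8 were 721.1 ± 95.07 and 643.4 ± 81.71 CPM per kilobase (SD, n = 4). With zinc they were 708.1 ± 44.92 and 623.3 ± 38.59 CPM per kilobase (SD, n = 4). By mean level, Rps3 ranked 3 and Rpl8 ranked 4 among the members in both groups. Both genes were measured in the same libraries and rose and fell together, so these SDs between libraries do not test their order. The lowest tested members per kilobase were Rpl28, Rps27a, Rps6 and Rpl11, at 0.8076, 0.7332, 0.5462 and 0.5118 CPM per kilobase. This order and the range below depend on the annotated mRNA used for the length. Some of these mRNAs far exceed the coding sequence, with 2671 bases for 411 in Rpl28 and 6111 for 291 in Rpl37. Without division by length, Rpl28, at a mean of 2.157 CPM, lay above Rpl10a, at 1.453 CPM. Tested members spanned a 1674-fold range, and the 6 most counted members held 47.66% of member counts.

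Several members known from textbooks as indispensable had low counts, and some had almost none. Rps6, the small subunit protein phosphorylated by S6 kinase, was at 0.7505, 0, 0.423 and 0.7256 CPM with water and at 0.2969, 0.6276, 0.5531 and 0.543 CPM with zinc. Its 0 in water 2 allowed up to 0.131 CPM before TMM scaling. Rpl11, which binds Mdm2 when ribosome assembly fails, was at 0.4296 to 0.9501 CPM. Rps27a, made as a fusion with ubiquitin, was at 0.8037 to 1.823 CPM and Rpl28 at 1.59 to 3.064 CPM. Rpl9, among the most variable members around the median member with an SD of 0.5527, was at 0.9501 to 3.208 CPM. Mean counts per library were 10.88 for Rps6, 15.12 for Rpl11, 28 for Rps27a, 48.62 for Rpl28 and 44.38 for Rpl9. The 3 members with most spread, Rps6, Rpl10a and Rpl9, all had low counts. Of the 7 members below the filter, those named had mean counts per library of 0.375 (Rpl24), 1.125 (Rpl23a), 1.75 (Rps29), 4.125 (Rps10), 5 (Rps13) and 7.75 (Rps27). Between 1 and 4 members had no count at all in a given library.

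These levels followed how much of a member's sequence was its own. Every 75-base window of each coding sequence was searched in the GRCm39 genome on both strands, a comparison chosen after the levels had been seen. The median member had 15.55% of its windows nowhere else in the genome, against 100% for the median of 11309 other tested coding genes, and 62 members (80.52%) but 2.617% of the other genes had under 50%. Members shared windows with a median of 5 other loci and with up to 64 (Rpl7a), and Rps3 shared none.

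The 26 members with no window of their own had a median level of 2.329 CPM per kilobase, and 5 of the 7 members below the filter were among them. The 36 members with some but under 50% had a median of 33.28, and the 15 members with 50% or more had a median of 393.9 CPM per kilobase, with none below the filter. These 15 took 69.88% of all member counts and the first 26 took 3.555%. Across the 77 genes, which are not independent replicates, Spearman's rho between level and unique share was 0.8153, and it was 0.8146 with 50-base and 0.8373 with 100-base windows. Exceptions were Rpl41, whose coding sequence is a single 75-base window, at 329.5 CPM per kilobase, Rps28 at 102.1 with no unique window, and Rpl13a at 20.15 with 86.36% of its windows unique. No source used here says how reads with several matches were counted, so levels are uncertain between members. For a member with few or no windows of its own, a comparison between libraries could depend on that treatment as well.

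**Figure D4:**
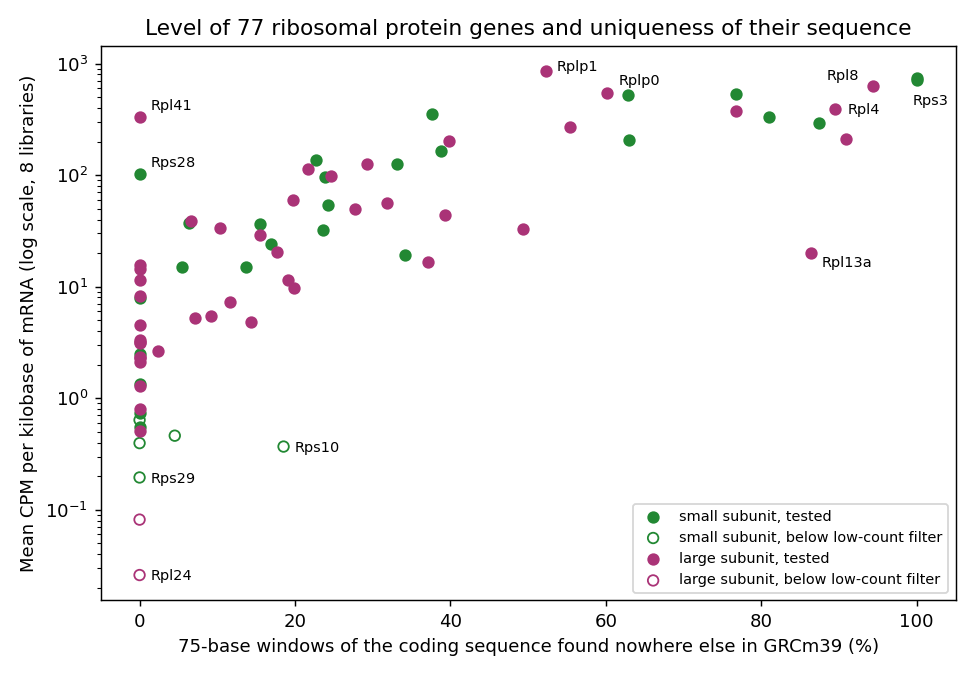
Each point is 1 of the 77 genes, with the percent of its 75-base coding windows found nowhere else in the genome on the horizontal axis and its mean CPM per kilobase of mRNA over 8 libraries on a log vertical axis. Green marks the small and purple the large subunit, and open points are the 7 members below the low-count filter, of which 5 lie at 0%. The 15 members at 50% or more have a median of 393.9 and the 26 members at 0% a median of 2.329 CPM per kilobase.

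Overlap with another annotated gene on the same strand covered more than 10% of the mRNA of 3 members, Rps10 (91.6% of its mRNA under Gm49804), Rpl24 (71.5% under Gm28037) and Rpl13a (59.3% under Gm45713 and Mir5121). In Rpl19 it covered 5.5%. The 315 annotated pseudogenes named after members had 449 to 811 counts per library in all, which was 0.3103 to 0.3694% of the member counts, and 124 of them had no count in any library. Among TOP genes outside the list, Rack1, with 100% unique windows, was at 823.4 to 1161 CPM, whereas Tpt1, with none, was at 58.59 to 93.82 CPM. Other TOP genes departed from this order. Eef1d, with 88.57% unique windows, was at 66.67 to 90.43 CPM, and Eef1a1, with 47.73%, was at 1258 to 1672 CPM.

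None of the neighbouring gene groups had a member past the threshold (edgeR, adjusted p of 0.05; background 0.0834%). Of the 15 translation factors with TOP mRNAs, 4 lay above and 11 below 0 with a median log2 fold change of -0.03, and the smallest p belonged to Npm1, a nucleolar chaperone, at 0.15 (SE 0.13). Of 30 genes for ribosome assembly and rRNA synthesis, 20 lay above and 10 below 0 with a median of 0.06. Rrp12, which takes part in the export of pre-ribosomes, had the smallest p there, at 0.28 (SE 0.16). Of 13 genes that control ribosomal protein translation, 5 lay above and 8 below 0 (median -0.02), with Tsc2, an inhibitor of mTORC1, at -0.14. The 12 tested genes of ribosome-linked stress and quality control split 6 to 6, with the p53 target Cdkn1a at -0.52 (SE 0.29).

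Of 11 ribosomal protein paralogs and fusion genes outside the naming rule, 7 passed the filter. Rps27l, a paralog of Rps27, was at 94.19, 74.11, 59.94 and 61.06 CPM with water and at 85.75, 77.3, 74.79 and 64.07 CPM with zinc. Its groups overlapped and its log2 fold change was 0.06. Rps27 itself was below the filter, but it had no 75-base window of its own, whereas 77.78% of the windows of Rps27l were unique. The levels of these genes therefore cannot be compared with each other. Rpl7l1 and Rpl22l1 had log2 fold changes of -0.02 and 0.05. Fau, which encodes the small subunit protein eS30 as a fusion, was at 0.688, 0.7303, 0.5499 and 1.413 CPM with water and at 0.4751, 0.8208, 0.3951 and 0.2715 CPM with zinc, a difference of -0.81 on the log2 scale (SE 0.53) with overlapping groups. Rpl36al and Rpl37rt were at 0.52 (SE 0.40) and -0.41 on the log2 scale. Fau had no 75-base window of its own.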

How the data were processed

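Gene expression was measured in 8 libraries of sorted PCs, 4 with water and 4 with zinc, grouped by the GEO labels. The authors deposited raw read counts per Ensembl gene ID, 1 column per library, with no normalization. The submitters' processing notes name FastQC 0.12.0, STAR 2.7.0a, DESeq2 and the mm39 build, whereas the counting program, its annotation and the treatment of multi-mapping reads were not given in the sources used. Multi-mapping treatment could change every level of a gene with near-identical copies.

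Symbols and positions were matched by gene ID to GENCODE M39 (54749 of 55414 IDs, at least 99.994% of counts per library). Genes passing edgeR's default filter (minimum count 10) were tested with edgeR 4.0.16 (TMM, robust quasi-likelihood fit, treatment only, Benjamini-Hochberg, threshold 0.05), in R 4.3.3, after the code was tested on simulated data. Fold changes are zinc over water. Sums per library were tested by exact permutation (two-sided, scipy 1.17.1). DESeq2 1.42.0 and limma 3.58.1 (voom), other scalings and filters, a replicate block and leaving out each library were alternatives. Lengths and coding sequences came from the shortest consensus (CCDS) mRNA of each gene, or the canonical one. In the other genes windows were searched every 10 bases.

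Named members were those with the smallest p or past the threshold, the 4 largest fold changes in each direction at a mean of at least 10 CPM, members with non-overlapping groups, the 4 highest and 4 lowest levels per kilobase, the 3 with most and the 3 with least spread around the median member, Rplp0, Rplp1, Rplp2, Rpsa and Rps27a, and every member below the filter. From the other lists the gene with the smallest p and the tested paralogs were named. Some genes that meet these rules are not reported here. Rack1, Tpt1, Eef1a1, Eef1d, Olfm4, Smoc2 and the exceptions to the uniqueness trend were named after their values were seen. Members and lists were chosen with earlier results of these data known.

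The summed member share had a Wilson 95% interval of at most 0.00448 percentage points on either side, covering counting error only. No label says whether replicates were handled on separate days. The p-values thus rest on the spread between libraries, in which mouse and handling cannot be told apart.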

Additional observations from a re-analysis of the deposited data

How the results depend on the processing

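The number of members past the threshold was 0 under every alternative run. The median member log2 fold change stayed below 0 in all of them, from -0.09 (mean count of at least 50) to -0.07 (no low-count filter), and from -0.13 to -0.005 with each library left out in turn. The share difference ran from -0.1137 to 0.06295 percentage points with each library left out, turning positive without water 4. The small to large subunit ratio ran from -0.02099 to 0.0001411 in the same way, and a difference of median member log2 CPM gave 0.1006 in place of -0.01162 (exact permutation p = 0.3714) when every member was weighted alike. Of 309 values of the 21 named tested members, 297 kept direction and side. The other 12, in 10 members, turned with 1 library left out, with ranges of -0.006 to 0.1712 for Rpl39, -0.173 to 0.044 for Rplp1, -0.0907 to 0.0613 for Rps3, -0.1058 to 0.0366 for Rpl8, -0.0221 to 0.493 for Rps27a, -0.308 to 0.4402 for Rps6, -0.4302 to 0.0852 for Rpl9, -0.1178 to 0.0041 for Rplp2, -0.0553 to 0.1088 for Rplp0 and -0.0716 to 0.0122 for Rpsa. The cause was not tested.

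No label ties the replicate numbers to a shared day or litter. Over all tested genes the deviations of same-numbered libraries correlated at 0.2326, 5.5e-05, 0.1268 and 0.2634, so a weak correlation was seen for 3 of the 4 numbers and not for number 2. Over these genes 3 of 4 water libraries correlated best with their own number. Over the members alone the correlations were -0.1323, -0.1971, -0.1475 and 0.1742 for numbers 1 to 4, so only number 4 was above 0. The Defa share was also close within numbers, at 39.85 and 38.51, 33.91 and 33.99, 33.17 and 33.12, and 29.21 and 27.86% (water and zinc). Whether the numbers mark shared handling is thus unknown, and the block was kept as an alternative. With the replicate block 32 genes (0.267%) and 0 members passed, the median member log2 fold change was -0.07, and the sign-flip test of the member share gave an exact p of 0.625 (smallest possible 0.125). At these depths members of about 1 CPM rest on few counts, for example a mean of 32.62 for Rpl10a.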
